A study of Mus musculus with 6 samples.

Results

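The TRBV13-2 rearrangements of splenic T follicular regulatory (Tfr) cells were taken as all listed T cell receptor beta rearrangements whose V segment is Trbv13-2, with allele suffixes ignored. This rule gave 584 of 4409 listed rearrangements and 849 of 7043 templates, where templates is the count listed beside each rearrangement. Genomic DNA came from sorted splenic Tfr cells of 3 mice of the genotype Foxp3GFP, named for a green fluorescent protein at Foxp3. Each mouse gave 1 sample labelled superior and 1 labelled inferior, 6 samples in all, and the labels do not say what these words denote or which markers defined the sort. All 6 samples share the reporter genotype, and the labels give no age and no treatment. The totals were 667 to 1136 templates in superior samples and 920 to 1855 in inferior samples, so that 1 template was between 0.054% and 0.150% of a sample. Genomic DNA carries no expression level, so the cell type could not be checked against marker genes, and only the beta chain was read.

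Tfr cells are Foxp3-expressing regulatory T cells that enter B cell follicles and restrain the germinal centre reaction. Each T cell builds its beta chain by joining a V, a D and a J segment, with bases trimmed and added at both joints. The third complementarity-determining region (CDR3) spans those joints and contacts the peptide, while the V segment also encodes the CDR1 and CDR2 loops that mostly touch the MHC molecule. TRBV13-2 encodes the chain long known as Vbeta8.2, in a small family with TRBV13-1 (Vbeta8.3) and TRBV13-3 (Vbeta8.1). In RefSeq's GRCm38.p6 annotation (mm10) Trbv13-2 lies on chromosome 6 from 41121396 to 41121832, 411.4 kb before the TRBD1 segment, between TRBV12-2 and the pseudogene TRBV12-3.

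The start of the CDR3 sets TRBV13-2 apart from its relatives, so the most frequent base at each of its first 15 positions is printed for TRBV13-2, its family and the other most used V segments. The sequences run 5′ to 3′ from the cysteine codon, as listed in the deposited rearrangements, and the capitals mark the codon of position 4.
TRBV13-2: tgtgccagcGGTgat
TRBV13-1: tgtgccagcAGTgat
TRBV13-3: tgtgccagcAGTgag
TRBV2: tgtgccagcAGCcaa
TRBV3: tgtgccagcAGCtta
TRBV19: tgtgccagcAGTata

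Position 4 of TRBV13-2 was thus a glycine codon where the 5 others had a serine codon. Counted over merged clonotypes, which are rearrangements of 1 mouse with the same V segment, CDR3 bases and J segment, TRBV13-2 had 120, 117 and 175 in mice 1, 2 and 3. Of these 412 clonotypes, 410 had a CDR3 that began with cysteine. Glycine stood at position 4 in 395 of the 410 (96.3%), against 23 of 3366 clonotypes of other V segments (0.683%). The majority sequence was unbroken up to base 12 in 82.9% of TRBV13-2 clonotypes, up to base 14 in 63.4% and up to base 15 in 46.8%. Past the printed bases it was unbroken up to base 16 in 31.0%, up to base 17 in 21.2% and up to base 18 in 6.10%.

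TRBV13-2 had the highest mean share of templates of the 29 V segments found, 11.9% ± 2.99 (SD over the 6 samples), followed by TRBV2 at 10.9% ± 1.74, TRBV3 at 10.3% ± 1.36 and TRBV19 at 9.97% ± 0.858. TRBV2 and TRBV3 were each below it in 4 of 6 samples and TRBV19 in 5 of 6, so the order of these 4 lies within the spread between samples. TRBV5, the fifth, was below it in 6 of 6 samples at 7.17% ± 0.937. Its relatives TRBV13-3 (4.83% ± 0.542) and TRBV13-1 (3.76% ± 0.531) were also below it in all 6.

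In superior samples, TRBV13-2 took 48 of 667 templates (7.20%, 95% Wilson interval 5.47 to 9.41) in mouse 1, 131 of 1095 (11.96%, 10.2 to 14.02) in mouse 2 and 130 of 1136 (11.4%, 9.72 to 13.4) in mouse 3. In inferior samples, it took 205 of 1370 (14.96%, 13.2 to 16.95) in mouse 1, 140 of 920 (15.2%, 13.0 to 17.7) in mouse 2 and 195 of 1855 (10.5%, 9.20 to 11.99) in mouse 3. These intervals, like all others here, cover counting error only. The superior sample was the lower of its pair in mice 1 and 2 and the higher in mouse 3, and the groups overlapped. TRBV13-2 ranked 4, 1 and 2 among V segments in superior samples, against 1, 1 and 2 in inferior samples. The mean was 10.2% ± 2.62 in superior samples and 13.6% ± 2.65 in inferior samples (SD, n = 3 each).

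Fitted across V segments with edgeR's quasi-likelihood test, the superior-over-inferior log2 ratio of TRBV13-2 was -0.38 (SE 0.18, adjusted p = 0.531). At an adjusted p below 0.05, edgeR called 0 of 23 V segments, or 0%. TRBV13-2 was among the 2 below 0.05 before adjustment. DESeq2 also called 0, with 2 below 0.05 before adjustment. The ratio was -0.12 without mouse 1 and -0.61 without mouse 3, so its size rests on mouse 1. With each clonotype counted once, the log2 ratio was -0.13, and the mean share of clonotypes was 9.91% ± 2.62 in superior samples and 11.6% ± 1.57 in inferior samples.

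**Figure D1:**
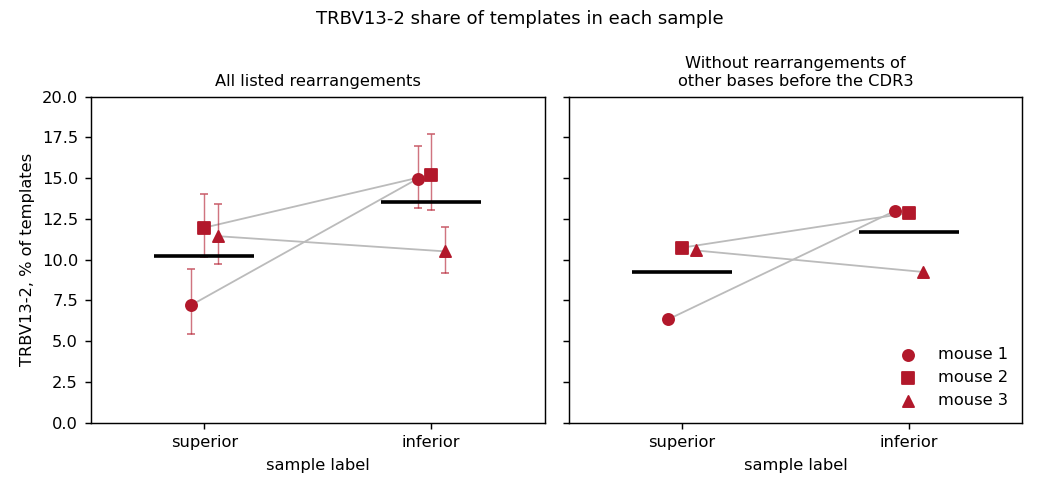
The TRBV13-2 share of templates (%, vertical axis) is plotted for superior and inferior samples, with a symbol and a grey line for each mouse, group means as black bars, and 95% Wilson intervals on the left. On the left mouse 1 has 7.20% in its superior and 14.96% in its inferior sample, while mouse 3 has 11.4% and 10.5%; the right panel leaves out rearrangements with other bases before the CDR3.

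Many listed TRBV13-2 rearrangements repeated another with the same CDR3 and J segment and differed from it only in the V bases before the CDR3. Of 582 listed rearrangements with a cysteine start, 148 (25.4%) departed from the majority base at 1 or more of the 45 positions before the CDR3, against 290 of 3786 (7.66%) in other V segments. All 148 had 1 template each, and 146 had a partner in the same mouse with the majority bases, the same CDR3 and the same J segment. They made up 17.5% of TRBV13-2 templates, against 4.73% in other V segments. TRBV24 had a like share (26.0% of 77 listed), followed by TRBV29 (21.98% of 91) and TRBV16 (18.3% of 246). TRBV13-1 (2.99%) and TRBV13-3 (4.81%) had few.

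Most of these departures changed the length of a single run of C. The majority sequence of TRBV13-2 has 5 C in a row at 22 to 26 bases before the CDR3, and 92 of the 148 had 4 C and 38 had 6. The clonotype with the most forms, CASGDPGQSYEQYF joined to TRBJ2-7 in mouse 2, shows them. Of its 5 listed forms, the one with the majority bases and the 2 with a shorter or longer run are printed whole, 87 bases each and 5′ to 3′, with the run in capitals.
5 C: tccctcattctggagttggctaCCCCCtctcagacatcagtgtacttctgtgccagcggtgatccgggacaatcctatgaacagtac
4 C: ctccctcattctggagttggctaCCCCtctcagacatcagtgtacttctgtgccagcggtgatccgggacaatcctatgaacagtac
6 C: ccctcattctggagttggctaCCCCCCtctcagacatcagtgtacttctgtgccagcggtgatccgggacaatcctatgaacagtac

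The majority form had 10 superior and 6 inferior templates. The form with 4 C had 1 in each, and the form with 6 C had 1 in the superior sample. The remaining forms, not shown, differed at other bases and had 1 superior template each. Each listed sequence ends at the same base of the J segment, so a longer run brings the listed start nearer. Repeats were found more often beside larger clonotypes: 29 of 243 clonotypes (11.9%) with 1 template of majority bases had one, 75 of 151 (49.7%) with 2 to 4, and 13 of 14 (92.9%) with 5 or more. The share of listed TRBV13-2 rearrangements that departed was 22.2%, 24.7% and 17.2% in the superior samples of mice 1, 2 and 3, against 28.6%, 32.6% and 24.8% in the inferior samples. In each mouse the superior sample was lower. The groups did not overlap, although 24.7% in superior cells of mouse 2 and 24.8% in inferior cells of mouse 3 lay close together. For other V segments the share was 7.07%, 9.78% and 7.65% in superior samples, against 6.70%, 7.63% and 7.33% in inferior samples. There the superior sample was the higher in each mouse, and the groups overlapped. Whether such repeats are reading errors was not tested.

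**Figure D2:**
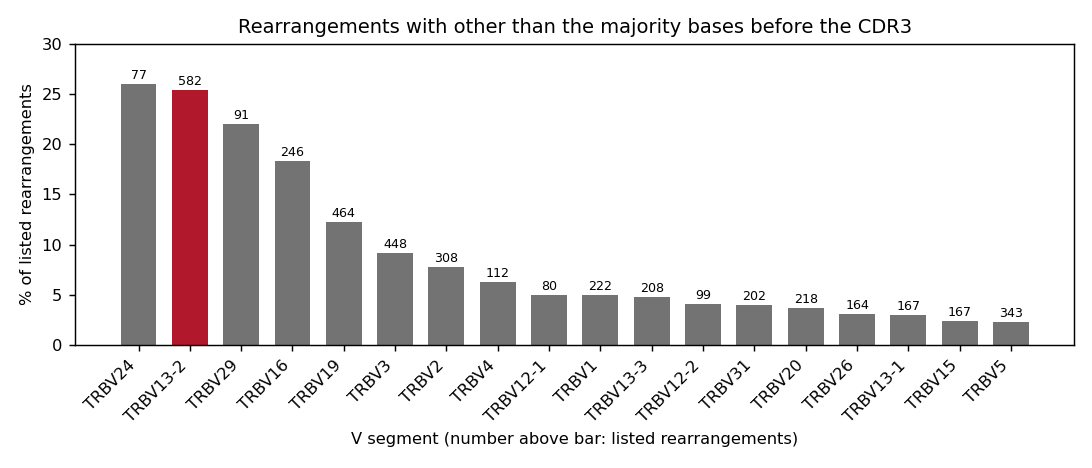
Bars give, for the 18 V segments with 50 or more merged clonotypes, the share (%) of listed rearrangements that differ from the majority bases before the CDR3; the number above each bar is how many were listed. TRBV13-2 (red) stands at 25.4% of 582, next to TRBV24 at 26.0% of 77, and TRBV5 is lowest at 2.33%.

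Per merged clonotype, TRBV13-2 had 1.37 ± 0.077 listed rearrangements, against 1.08 ± 0.0076 for other V segments (SD, n = 3 mice). The values were 1.38, 1.44 and 1.29 in mice 1, 2 and 3, against 1.08, 1.09 and 1.08. Tested with limma across V segments, the difference was 0.29 (SE 0.031, adjusted p = 0.00135) and ranked 1 of 18. In that test 14 of 18 V segments were called, or 77.8%, so a call by itself is common. Without these rearrangements the TRBV13-2 share of templates was 6.35%, 10.7% and 10.6% in superior samples of mice 1, 2 and 3, against 13.0%, 12.9% and 9.25% in inferior samples. Its rank was then 5, 3 and 3 in superior samples, against 1, 2 and 3 in inferior samples.

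TRBV13-2 clonotypes were joined to TRBJ2 segments in 73.3%, 72.6% and 73.0% of cases in mice 1, 2 and 3, against 67.7%, 66.8% and 65.6% for other V segments. The TRBJ2 cluster lies after TRBD2 and farther from the V segments than the TRBJ1 cluster. TRBV13-2 was higher in 3 of 3 mice, and its range did not overlap that of the other V segments, which are pooled within each mouse. The difference was 6.32 points (SE 2.04), which missed the threshold in limma (adjusted p = 0.324); 0 of 18 V segments were called, or 0%. It ranked 2 of 18. A higher TRBJ2 share was not particular to TRBV13-2. TRBV15 had 71.4% ± 0.523, TRBV13-3 70.9% ± 7.26 and TRBV13-1 69.8% ± 6.17, each against 67.2% for its other V segments (SD, n = 3 mice). TRBV3 (63.5% ± 0.543) and TRBV2 (61.8% ± 1.28) lay below theirs, at 67.8% each.

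TRBJ2-7 was the J segment most often joined to TRBV13-2, in 22.1% ± 3.72 of clonotypes, against 20.02% ± 2.49 for other V segments (SD, n = 3 mice). TRBJ2-5 came next with 15%, 18.8% and 17.8% in mice 1, 2 and 3, against 13.3%, 11.1% and 13.6%. It was higher in 3 of 3 mice, with a log2 ratio of 0.43 (SE 0.16) and an edgeR adjusted p of 0.491. TRBJ1-1 was lower in 3 of 3 mice (6.99% ± 0.424, against 9.09% ± 0.756; adjusted p = 0.801), as was TRBJ2-3 (5.57% ± 0.385, against 7.53% ± 0.489; adjusted p = 0.803). Of the 12 J segments tested for TRBV13-2, 0 were called by edgeR, 1 had an unadjusted p below 0.05 (TRBJ2-5), and over all V segments 0 of 216 were called, or 0%. On simulated counts of these depths the edgeR fit recovered 50% of J segments changed 2-fold and 8.33% of those changed 1.5-fold. The simulation had no spread between mice and adjusted over the J segments of TRBV13-2 alone, not over all 216. Recovery by the reported test was thus not measured, and a moderate preference could be missed. The pseudogene TRBJ2-6 and TRBJ1-7 were in 0 of 411 TRBV13-2 clonotypes, which allows a share of up to 0.730%.

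**Figure D3:**
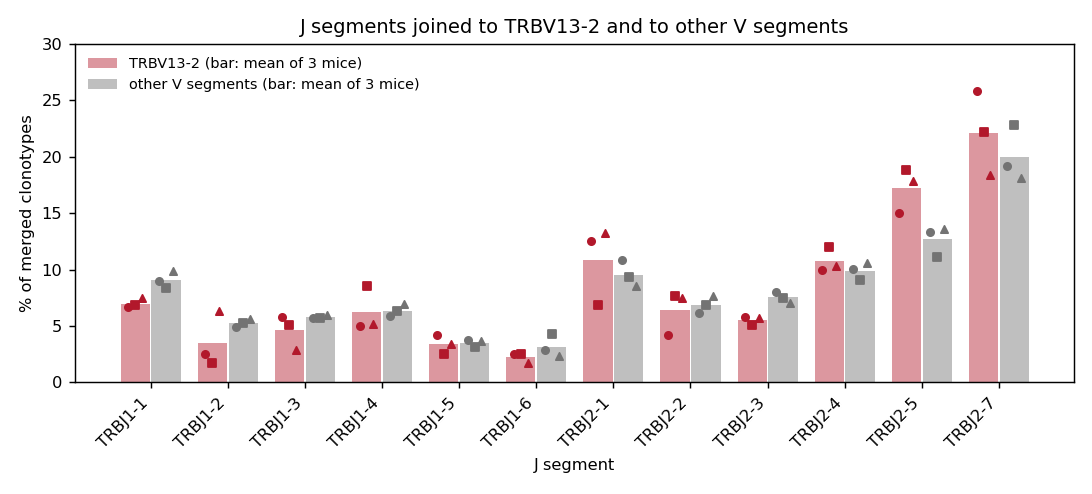
The share (%) of merged clonotypes joined to each of 12 J segments is given for TRBV13-2 (red) and other V segments (grey), as bars for the mean and circles, squares and triangles for mice 1, 2 and 3. TRBJ2-5 has all 3 red points, from 15% to 18.8%, above the grey points, from 11.1% to 13.6%, while TRBJ2-7 overlaps.

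By Jensen-Shannon distance of J usage, summed over the 3 mice, the V segments most like TRBV13-2 were TRBV19 (0.090), TRBV13-3 (0.095) and TRBV13-1 (0.112). By share of templates over the 6 samples the highest Pearson correlations were with TRBV2 (0.67), TRBV12-1 (0.62) and TRBV24 (0.62). The shares of 1 sample sum to a fixed total and come from the same library, so these values only describe the samples.

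TRBD1 was assigned in 37, 46 and 72 TRBV13-2 clonotypes of mice 1, 2 and 3, and TRBD2 in 56, 48 and 59. Of clonotypes with a resolved D segment, 39.8%, 48.9% and 55.0% had TRBD1, against 55.2%, 53.9% and 59.0% for other V segments. TRBV13-2 was lower in 3 of 3 mice, but its range overlapped that of the others. The difference was -8.16 points (SE 6.47, limma adjusted p = 0.634, 0 of 18 V segments called, or 0%). TRBD1 can join either J cluster, while TRBD2 lies after the TRBJ1 cluster and normally joins TRBJ2 segments. TRBD2 was nevertheless assigned in 6 of 111 TRBJ1-joined TRBV13-2 clonotypes, against 71 of 1138 for other V segments, and the accuracy of the D calls was not tested. Within all TRBJ2-joined clonotypes, those with an unresolved D segment included, TRBD1 made up 26.9% ± 3.03, against 32.5% ± 1.36. It was lower there in 3 of 3 mice, while 19.7% ± 4.32 were unresolved, against 17.8% ± 0.581. The D segment was unresolved in 22.4% ± 2.74 of TRBV13-2 clonotypes, against 19.6% ± 0.173.

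CDR3 length was close to that of other V segments. The mean was 13.7, 13.9 and 13.9 residues in mice 1, 2 and 3, against 13.8, 13.8 and 13.8 for other V segments, and the difference was 0.019 residues (SE 0.11, limma adjusted p = 0.866). In that limma test 7 of 18 V segments were called, or 38.9%. A shift of 1 residue was recovered in 96.7% of simulated cases, but it is larger than the difference of any V segment (at most -0.74 residues, in TRBV20). Smaller shifts were not simulated, so their recovery is not known. A length of 14 was commonest, in 28.3% ± 2.88 of TRBV13-2 clonotypes, against 30.05% ± 1.84. Length 15 was higher in 3 of 3 mice (23.0% ± 1.32, against 20.1% ± 0.691; edgeR adjusted p = 0.723). Of the 9 lengths tested for TRBV13-2, 0 were called by edgeR, 0 had an unadjusted p below 0.05, and over all V segments 2 of 162 were called, or 1.23%.

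Position 5 was aspartate in 54.2%, 45.7% and 63.8% of TRBV13-2 clonotypes of mice 1, 2 and 3, against 6.31%, 6.41% and 6.50% in other V segments. It was also common there in 3 other V segments, with 36.1% ± 6.79 in TRBV13-3, 32.8% ± 5.14 in TRBV13-1, which has the same majority codon, and 29.2% ± 5.30 in TRBV20 (SD, n = 3 mice). The majority base 15 was carried by only 32.7% of TRBV13-1 and 32.3% of TRBV13-3 clonotypes, so neither printed codon stands for most of them. In TRBV13-3, printed with a glutamate codon, glutamate was there in 15.5% ± 2.41. For aspartate TRBV13-2 had the highest mean of the 18 V segments. Its lowest mouse (45.7%) lay above the highest of TRBV13-3 (43.4%), and that difference was not tested. Glutamate, which shares the first codon bases of aspartate, was there in 12.3% ± 3.84, against 2.68% ± 0.249, and glycine in 11.4% ± 0.902, against 5.67% ± 0.597. Of 410 TRBV13-2 clonotypes 226 (55.1%) had glycine then aspartate at positions 4 and 5, and 3 of 3366 others did. The codons GGT and GAT of the majority sequence made it in 192 of the 226. Among the 218 clonotypes without that pair of codons, 34 (15.6%) had the same residues from other codons, most often GGT with GAC (22) or GGG with GAC (11).

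Past position 5, TRBV13-2 differed from other V segments pooled in 2 central residues, and these calls depend on position 6, as given below. The majority sequence of TRBV13-2 was unbroken up to base 17, within the codon of position 6, in 21.2% of clonotypes. How much of position 6 the V segment encodes was not tested. Alanine made up 9.31%, 10.7% and 10.96% of residues of mice 1, 2 and 3 after the first 5 and last 5 were left out, against 6.28%, 6.28% and 6.73%. It was 0.69 higher on the log2 scale (SE 0.12, edgeR adjusted p = 0.000158). Aspartate, a negatively charged residue, made up 3.55%, 4.23% and 4.59%, against 6.54%, 6.73% and 6.85%, and was 0.68 lower on the log2 scale (a ratio of -0.68, SE 0.16, adjusted p = 0.00924). Neither range overlapped that of other V segments pooled. Low central aspartate was not particular to TRBV13-2: set against all other V segments in the same fit, the log2 ratio was -0.67 in TRBV13-1 (SE 0.22, adjusted p = 0.321), -0.38 in TRBV13-3 (SE 0.27, adjusted p = 0.677) and -0.85 in TRBV20 (SE 0.26, adjusted p = 0.0765). For alanine it was 0.04 in TRBV13-1, 0.02 in TRBV13-3 and 0.24 in TRBV20, and none of these 3 passed the test. Glutamate, also negatively charged, missed the threshold (log2 ratio -1.28, SE 0.38, adjusted p = 0.0765), as did proline (0.85, SE 0.28, adjusted p = 0.139). The next most different were tryptophan above (0.30, adjusted p = 0.677) and methionine below (-1.22, adjusted p = 0.903), the last from 1 residue in TRBV13-2.

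Of 19 residues tested for TRBV13-2, 2 were called, and over all V segments 6 of 342 were, or 1.75%. Residues of 1 CDR3 are not independent, and the calls depend on position 6. There alanine stood in 20%, 19.8% and 24.7% of TRBV13-2 clonotypes, against 4.004%, 4.34% and 4.91%, and aspartate in 2.50%, 7.76% and 5.75%, against 15.02%, 16.1% and 17.3%. In TRBV13-1 alanine stood there in 11.5% ± 2.47 and aspartate in 5.79% ± 2.91, and in TRBV13-3 in 8.96% ± 6.59 and 7.21% ± 4.20. With the first 6 residues left out, 0 residues were called (alanine -0.15 and aspartate 0.15 on the log2 scale, both with adjusted p = 0.944). Only alanine was called without mouse 1 or without mouse 2, and 0 residues were called without mouse 3. Position 7 was glycine in 46.8% ± 3.87 of TRBV13-2 clonotypes, against 37.6% ± 1.73, and was higher in 3 of 3 mice.

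**Figure D4:**
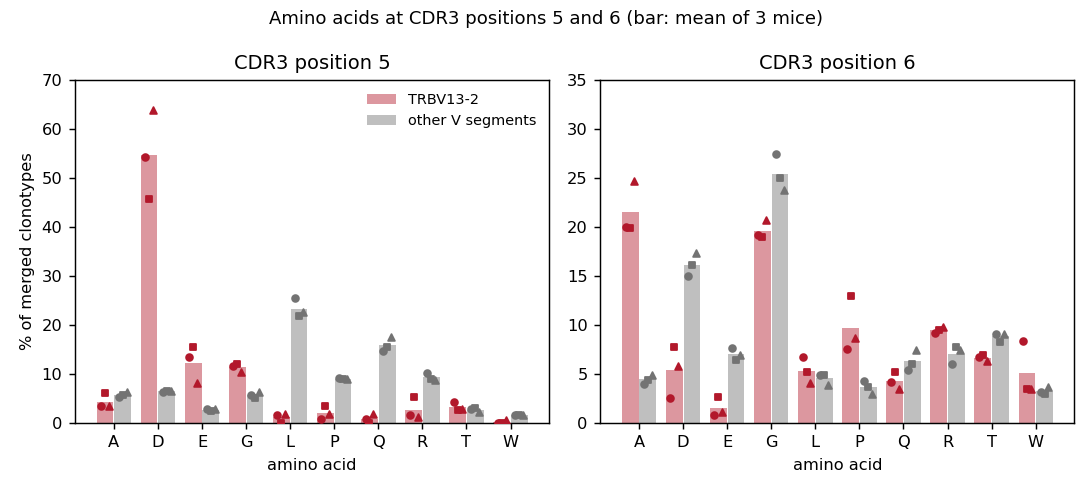
The share (%) of merged clonotypes with each of 10 selected amino acids at CDR3 position 5 (left) and 6 (right) is given for TRBV13-2 (red) and other V segments (grey), as bars for the mean and circles, squares and triangles for mice 1, 2 and 3; the vertical scales differ. Aspartate at position 5 (54.5%, against 6.40%) and alanine at position 6 (21.5%, against 4.42%) are higher in TRBV13-2 than in other V segments pooled, which include TRBV13-1 and TRBV13-3.

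A hydrophobic residue at position 6 or 7 has been linked in other T cells with self-reactivity. Such residues (F, I, L, M, V, W or Y) were present in 34.2%, 27.6% and 25.3% of TRBV13-2 clonotypes of mice 1, 2 and 3, against 29.4%, 28.9% and 26.1% for other V segments. TRBV13-2 was higher in 1 of 3 mice, and the difference was 0.86 points (SE 1.92, limma adjusted p = 0.711; 3 of 18 V segments called, or 16.7%).

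TRBV13-2 clonotypes were small. Over a whole mouse 52.5% ± 2.53 had 1 template, against 57.8% ± 2.78 of clonotypes of other V segments, 40.5% ± 0.334 had 2 to 4, against 37.9% ± 2.46, and 27 of 412 had 5 or more, against 149 of 3404. Templates per clonotype were 2.11, 2.32 and 1.86 in mice 1, 2 and 3, against 1.77, 1.87 and 1.82. The log2 difference of 0.20 (SE 0.083) ranked 2 of 18 but missed the threshold in limma (adjusted p = 0.0611; 4 of 18 called, or 22.2%). Without rearrangements of other bases before the CDR3 the log2 difference was -0.014 (adjusted p = 0.952).

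Clonotypes of single samples were smaller in superior samples. TRBV13-2 had 1.66, 1.98 and 1.57 templates per clonotype in the superior samples of mice 1, 2 and 3, against 2.18, 2.26 and 1.97 in the inferior samples. The superior sample was lower in 3 of 3 mice, and the groups overlapped only by the superior value of mouse 2 (1.98) against the inferior value of mouse 3 (1.97). The mean difference was -0.40 (exact two-sided permutation p = 0.2, where the smallest p that 3 against 3 allows is 0.1). Without rearrangements of other bases it was 1.43, 1.65 and 1.36 in superior samples, against 1.80, 1.77 and 1.64 in inferior samples. In other V segments it was 1.595, 1.77 and 1.65 in superior samples, against 1.78, 1.80 and 1.83 in inferior samples.

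The share of TRBV13-2 clonotypes with 1 template was 72.4%, 66.7% and 65.1% in superior samples of mice 1, 2 and 3, against 45.7%, 40.3% and 52.5% in inferior samples. The groups did not overlap. Other V segments had 65.2%, 59.7% and 61.4% in superior samples, against 60%, 57.3% and 54.5% in inferior samples. Inferior samples of mice 1 and 3 also had more templates in all than the superior samples, while in mouse 2 they had fewer.

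**Figure D5:**
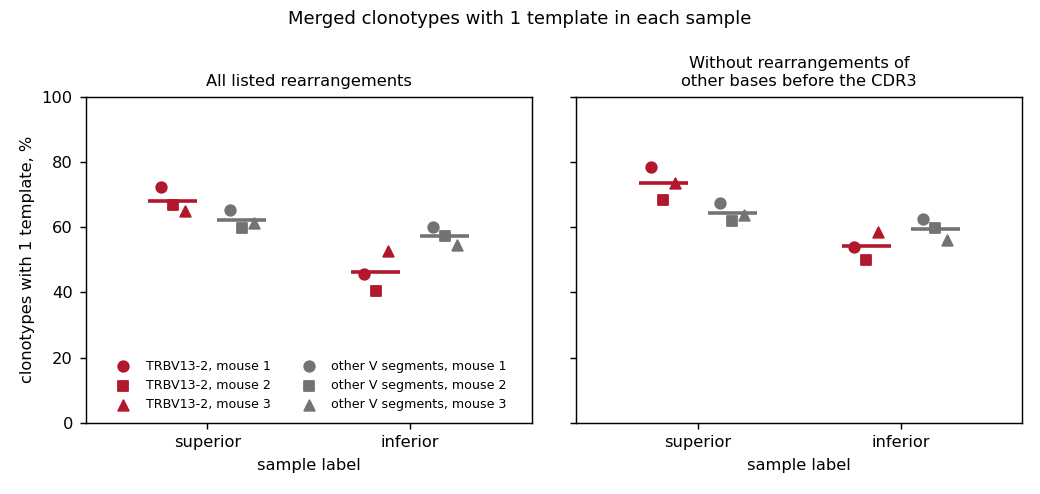
The share (%) of merged clonotypes with 1 template is given for superior and inferior samples, for TRBV13-2 (red) and other V segments (grey); symbols are mice, lines are means, and the right panel leaves out rearrangements with other bases before the CDR3. On the left the red points lie above the grey ones in all 3 superior samples and below them in all 3 inferior samples, as 72.4% against 65.2% and 45.7% against 60% in mouse 1.

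Within TRBV13-2, TRBJ1-5 was the only J segment called between sample labels in the main fit, and most alternative fits lost the call. It had 0 of 48 templates in the superior sample of mouse 1, which allows up to 6.25% (3 counts over the total). Superior samples of mice 2 and 3 had 1 template each, against 10, 3 and 10 templates in the inferior samples of mice 1, 2 and 3. Summed, that is 2 of 308 templates (0.649%) in superior samples and 23 of 540 (4.26%) in inferior samples, a ratio of 0.152 with an exact 95% counting interval of 0.0174 to 0.617. This interval pools the mice and takes templates as independent draws, though templates of 1 clonotype are not, so it is too narrow for a comparison of mice. The fitted log2 ratio was -2.54 (SE 0.80, edgeR adjusted p = 0.0322), and 1 of 12 J segments was called, or 8.33%. The call was lost with the mouse as a block (adjusted p = 0.0715), in DESeq2 (0.124), with each clonotype counted once (0.354), and without mouse 1, 2 or 3 (0.462, 0.157 and 0.159). TRBJ2-7 took 17.2%, 24.2% and 20.7% of TRBV13-2 clonotypes in superior samples of mice 1, 2 and 3, against 27.7%, 20.97% and 15.2% in inferior samples, and the groups overlapped (exact permutation p = 0.9). Mean CDR3 length was 14.1, 13.9 and 13.7 residues in superior samples, against 13.6, 13.9 and 14.01 in inferior samples (exact permutation p = 0.7).

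TRBV13-2 clonotypes found in both samples of their mouse numbered 3 of 120, 11 of 117 and 7 of 175 in mice 1, 2 and 3. As shares these were 2.50%, 9.40% and 4%, against 3.37%, 4.60% and 4.04% for other V segments. Only mouse 2 was higher, and the difference of 1.30 points (SE 1.51, limma adjusted p = 0.880; 0 of 18 called, or 0%) was -0.45 points without mouse 2. Of clonotypes with 5 or more templates in a sample, 9 of 26 were also in the other sample of the mouse (34.6%, 95% Wilson interval 19.4 to 53.8), against 32 of 135 (23.7%, 17.3 to 31.5) for other V segments. Of those with 1 template, 21 of 239 were (8.79%, 5.82 to 13.1), against 132 of 2089 (6.32%, 5.35 to 7.44). These counts by size pool the 3 mice and enter a shared clonotype once for each of its samples. The entries are thus not independent, and the intervals are too narrow for a comparison of mice. Mouse 2 held 11 of the 21 TRBV13-2 clonotypes found in both samples.

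Of TRBV13-2 clonotypes found in both samples of a mouse, the 5 with the most templates in that mouse are given with their CDR3 bases. The bases run 5′ to 3′ without the last codon. Capitals mark the bases past the unbroken match to the majority sequence, which was followed only up to base 15.
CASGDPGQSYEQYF, TRBJ2-7: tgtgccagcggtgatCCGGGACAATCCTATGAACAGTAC
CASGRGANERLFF, TRBJ1-4: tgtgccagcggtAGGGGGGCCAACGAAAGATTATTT
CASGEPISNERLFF, TRBJ1-4: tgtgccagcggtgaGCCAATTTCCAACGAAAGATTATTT
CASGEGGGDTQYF, TRBJ2-5: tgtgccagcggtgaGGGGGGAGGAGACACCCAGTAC
TRBJ1-3 clonotype of mouse 2: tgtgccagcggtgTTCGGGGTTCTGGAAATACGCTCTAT

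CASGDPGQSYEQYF had the most templates of any TRBV13-2 clonotype, 14 superior and 7 inferior ones in mouse 2. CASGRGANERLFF had 7 superior and 6 inferior templates in mouse 1. The other 3 were in mouse 2: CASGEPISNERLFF with 1 superior and 9 inferior templates, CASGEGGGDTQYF with 1 and 8, and the TRBJ1-3 clonotype with 6 and 2. Their larger count lay in the superior sample for 3 and in the inferior sample for 2. Each was found in 1 mouse only. Other clonotypes, of 7 to 11 templates, were in 1 sample of their mouse only. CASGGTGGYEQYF with TRBJ2-7 had 11 templates in the inferior sample of mouse 1. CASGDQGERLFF with TRBJ1-4 had 8 templates in the inferior sample of mouse 3, and a TRBJ2-7 clonotype, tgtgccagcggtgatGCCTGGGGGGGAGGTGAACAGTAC, had 7 in that of mouse 1. Mouse 3 also had a TRBJ2-7 clonotype of 9 templates in its inferior sample, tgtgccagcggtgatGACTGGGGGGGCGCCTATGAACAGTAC. A TRBJ1-4 clonotype of mouse 3 had 3 superior and 3 inferior templates, each sample with its own CDR3 bases for 1 amino acid sequence.

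Clonotypes of the same CDR3 amino acids and J segment in different mice were found in 8 of 399 TRBV13-2 cases (2.01%, 95% Wilson interval 1.02 to 3.91), against 22 of 3352 (0.656%, 0.434 to 0.992) for other V segments. Without mouse 1, 2 or 3 the shares were 1.05%, 1.39% and 1.29%, against 0.253%, 0.451% and 0.260%. TRBV13-2 had the most clonotypes of any V segment, and the shares were not adjusted for that number. Of the 18 V segments with 50 or more merged clonotypes, 6 had 0%, and TRBV15 came next after TRBV13-2 with 1.96% (3 of 153). Counted by nucleotides, 1 of 411 TRBV13-2 clonotypes (0.243%) was in 2 mice, against 8 of 3396 (0.236%).

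Only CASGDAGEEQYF with TRBJ2-7 was in all 3 mice, and no clonotype of another V segment was. Its bases differed in each mouse, and all 3 forms are printed because they give the same residues from different bases. Capitals again mark the bases past the match, which was followed only up to base 15. They begin with GC in each form, and the differences come after those bases. Whether GC comes from the V segment was not tested.
mouse 1: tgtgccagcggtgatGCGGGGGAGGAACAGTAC
mouse 2: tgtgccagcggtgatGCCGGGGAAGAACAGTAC
mouse 3: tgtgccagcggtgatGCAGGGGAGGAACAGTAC

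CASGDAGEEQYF had 2 superior templates in mouse 3, and 2 and 3 inferior templates in mice 1 and 2. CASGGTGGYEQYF with TRBJ2-7 had 11 and 4 templates in the inferior samples of mice 1 and 2, and had the most templates among the shared ones. Another TRBJ2-7 clonotype, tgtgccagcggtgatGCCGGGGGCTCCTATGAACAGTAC in mouse 1 and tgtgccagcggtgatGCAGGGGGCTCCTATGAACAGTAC in mouse 2, had 4 superior templates in mouse 2, and 2 and 3 in the inferior samples of mice 1 and 2. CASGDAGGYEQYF with TRBJ2-7 had 3 templates in each superior sample of mice 1 and 3, and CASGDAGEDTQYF with TRBJ2-5 had 3 and 1 there. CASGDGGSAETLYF with TRBJ2-3 had 5 superior templates in mouse 3 and 1 inferior template in mouse 2. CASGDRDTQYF with TRBJ2-5 had 1 and 2 in the superior samples of mice 2 and 3, and 1 in the inferior sample of mouse 3. All 7 of these had different CDR3 bases in different mice.

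The eighth, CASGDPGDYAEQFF with TRBJ2-1, had the same bases in mice 1 and 3, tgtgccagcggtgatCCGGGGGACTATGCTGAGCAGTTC, with 1 template in the superior sample of mouse 3 and 3 in the inferior sample of mouse 1. Of the 8, 4 have the residues GDAG at positions 4 to 7, and 1 has GDPG. A TRBJ2-2 clonotype had 2 nucleotide forms within mouse 3, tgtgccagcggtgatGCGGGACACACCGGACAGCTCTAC and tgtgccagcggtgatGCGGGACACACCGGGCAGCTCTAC, with 2 superior and 2 inferior templates in all. In all, 11 of 399 amino acid clonotypes (2.76%) had 2 or more nucleotide forms, against 43 of 3352 (1.28%) for other V segments.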

How the data were processed

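T cell receptor beta rearrangements were read from genomic DNA with the survey-level immunoSEQ mouse kit, per the labels' protocols. The deposited tables list each rearrangement with a count (used as templates; the sources used here do not say whether these are reads or molecules) and a productive frequency, a fraction of the sample made by the authors that was not used beyond a check. The genome build was mm10, per the submitters' processing notes; how V, D and J segments were called is not given in the sources used here.

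V and J names (29 and 14) were matched to RefSeq symbols of GRCm38.p6. Rearrangements were merged by V segment, CDR3 bases and J segment. V segments with 50 or more merged clonotypes (18) entered pairing tests, and features with a count of 10 or more were fitted. Counts were tested with edgeR 4.0.16 (quasi-likelihood, common dispersion; mouse as a block against other V segments), with DESeq2 1.42.0 as an alternative, and per-mouse values with limma 3.58.1 across V segments, all with Benjamini-Hochberg adjustment over the whole table at 0.05. Comparisons of samples used exact permutation tests (scipy 1.17.1). The fits were tested on simulated data. Where some features were changed 2-fold, the edgeR fit also called unchanged ones: 65 of 510 residues, 29 of 211 lengths and 11 of 300 J segments. At 1.5-fold it called 8 of 510 unchanged residues, and with nothing changed 0 of 510. Superior and inferior samples with 1 mouse number come from the same animal, so they are pairs; deviations from the group means correlated at 0.07, 0.67 and -0.35 in mice 1, 2 and 3 across V segments.

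Named clonotypes were the 3 with the most templates in each mouse, all in 2 or more mice, and up to 5 each with the most nucleotide forms or in both samples. The members, lists and rules were chosen with earlier results of these data known. Leaving out rearrangements with other bases before the CDR3 was chosen after seeing the data. Intervals are Wilson intervals at 95% unless named otherwise.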

Additional observations from a re-analysis of the deposited data

Results flagged for a closer look

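The share of merged clonotypes with 1 template was higher in TRBV13-2 than in other V segments in each superior sample (by 7.21, 6.92 and 3.69 points in mice 1, 2 and 3) and lower in each inferior sample (-14.3, -16.95 and -1.93 points). It is listed because the 3 superior and the 3 inferior samples point opposite ways. The means were 5.94 ± 1.96 points in superior and -11.0 ± 8.01 points in inferior samples (SD, n = 3 each), a difference of 16.98 points. The exact two-sided permutation p was 0.1, the smallest that this test allows with 3 against 3. Listing by opposite signs forces the groups apart and so fixes this p in advance, and no conclusion is drawn from it. Without rearrangements of other bases before the CDR3, the values were 11.1, 6.43 and 9.80 points in superior samples, against -8.81, -9.58 and 2.61 points in inferior samples, and mouse 3 no longer pointed the opposite way. Groups of 3 were not screened for outlying samples.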

How the results depend on the processing

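Of 113 alternative values for 18 results, 86 stayed the same by the rule for their kind. For fitted differences this meant the same sign and side of the threshold, and for exact tests the same sign only. For counts of calls it meant an unchanged count. For the share in 2 or more mice it meant a value within the Wilson interval of the main value. The count of central residues called (2) became 4 with DESeq2, 4 with no replicate block, 0 with the first 6 residues left out, and 0 to 1 when a mouse was left out; with the first 6 left out, alanine was -0.15 and aspartate 0.15 on the log2 scale. The 1 J segment called within TRBV13-2 became 0 with the mouse as a block, 0 with DESeq2, 0 with each clonotype counted once, and 0 to 0 when a mouse was left out. Leaving out rearrangements with other bases before the CDR3 turned the log2 templates per clonotype against other V segments to -0.014. Counting templates turned the difference from other V segments in mean CDR3 length to -0.025 residues and that in hydrophobic residues to -0.022 points. Counting nucleotides in place of amino acids gave a share in 2 or more mice of 0.243%. The cause of these changes was not tested.

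With a mouse left out, these ranges crossed 0: superior minus inferior mean CDR3 length, -0.16 to 0.23 residues; superior minus inferior TRBJ2-7 share, -3.57 to 4.43 points; mean CDR3 length against other V segments, -0.0093 to 0.054 residues; hydrophobic residues, -1.07 to 1.94 points; clonotypes in both samples, -0.45 to 2.38 points.

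In the paired fit with the mouse as a replicate block, the TRBV13-2 superior-over-inferior log2 ratio was -0.39 (edgeR adjusted p = 0.531), and exact sign-flip tests over the 3 mice gave p = 0.25, 0.75 and 1 for templates per clonotype (-0.40), CDR3 length (0.04 residues) and TRBJ2-7 (-0.52 points). With the mouse as a random block over 6 samples, the limma differences were 0.15 (log2 templates per clonotype), 0.05 residues, 7.30 points (TRBJ2), -9.03 points (TRBD1), 0.46 points (hydrophobic) and 0.26 (rearrangements per clonotype); the block changed no call other than those named. Depth limits all shares: most clonotypes rest on 1 template. With 3 mice, unpaired permutation tests stay at p = 0.1 or above and paired sign-flip tests at p = 0.25 or above. The sign-flip p of 0.25 for templates per clonotype was thus the smallest that test allows.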
